A study of Homo sapiens with 6 samples.

Results

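The NEDD4 family of ubiquitin ligases and the NDFIP adaptors that recruit them were followed in T47D cells depleted of CUEDC1, whose CUE domain binds ubiquitin. T47D is a luminal line from a human ductal carcinoma of the breast and expresses the oestrogen receptor. The members are the 10 rows of the deposited gene table that carry the symbols NEDD4, NEDD4L, SMURF1, SMURF2, WWP1, WWP2, ITCH, HECW2, NDFIP1 and NDFIP2, out of 17758 genes. They were taken by name, with earlier results of these data known, and all 10 passed the filter on low counts. In shCUEDC1 cells a lentiviral short hairpin RNA against CUEDC1 was stably expressed, and in shNC cells a non-targeting hairpin. Both groups are the same line in the same medium, with 3 libraries each that the series calls biological replicates. The labels do not say how many hairpins were used, nor whether the libraries of a group came from separate infections, so p-values reflect only how far these libraries vary, which may be technical.

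Ligases of this family are built alike. A C2 domain binds membranes, WW domains bind proline-rich PY motifs in substrates and adaptors, and a HECT domain at the C terminus takes ubiquitin from an E2 enzyme onto a cysteine before passing it to the substrate. The family acts at the plasma membrane and on endosomes, where it marks receptors, channels and transporters for lysosomal sorting, and it also marks transcription factors and signalling proteins. NDFIP1 and NDFIP2 are membrane proteins of the Golgi and endosomes whose PY motifs engage the WW domains, which recruits the ligases to membranes and relieves their autoinhibition.

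The PY motif, 2 prolines, any residue and a tyrosine, is the contact by which an adaptor and a ligase meet, and its codons are shown here for the 2 adaptors. The coding sequences of transcripts NDFIP1-201 and NDFIP2-201 (GENCODE v29, GRCh38) were searched in frame, on the sense strand only, for CCNCCNNNNTAT and CCNCCNNNNTAC, and each held 2 matches. Other forms of the motif were not searched for, so these matches need not be every WW-binding site of the adaptors. In the lines below, capitals mark the matched codons and the lower-case letters are the coding bases on either side. All 4 lie on the plus strand, each within 1 exon. The whole printed NDFIP1 stretches, flanks included, are at chr5:142131850-142131879 and chr5:142132241-142132270, and their capitals start at codons 39 and 64 of 221 coding codons. The whole printed NDFIP2 stretches are at chr13:79520921-79520950 and chr13:79533346-79533375, and their capitals start at codons 148 and 174 of 336.
NDFIP1 site 1: ggtgatgctCCTCCACCTTACagcagcatt
NDFIP1 site 2: tttccaaagCCCCCATCTTACaatgtagct
NDFIP2 site 1: gactcttccCCTCCACCATATagtagtatt
NDFIP2 site 2: tatcccgtgCCACCTCCCTATagcgttgct

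Totals lay between 18924327 and 19731609 estimated reads per library. CUEDC1 itself (Entrez 404093) was at 31.4, 33.8 and 32.0 CPM in shCUEDC1 1, 2 and 3, against 110, 109 and 93.3 CPM in shNC 1, 2 and 3. CPM are counts scaled to library size after TMM normalisation. shNC 3 stood apart from its own group. Distance was taken as the SD of the difference in log2 CPM, over genes averaging 10 CPM or more. It was 0.246 to 0.266 between shNC 3 and the other shNC libraries, and 0.109 between shNC 1 and shNC 2. Between those 2 and the shCUEDC1 libraries it was 0.235 to 0.247. Between shNC 3 and the shCUEDC1 libraries it was highest, at 0.270 to 0.287, and among the shCUEDC1 libraries it was 0.127 to 0.131. Results are therefore also given without shNC 3 where they move. All 8 epithelial and luminal markers were present, with summed FPKM (fragments scaled to gene length and library size) of 6054 to 6184 in shCUEDC1 and 4842 to 6208 in shNC libraries. Of 12 markers of leukocytes, endothelium, stroma and basal cells, 9 were below 1 FPKM in every library, and the summed level of the 12 was 24.3 to 27.4 FPKM in shCUEDC1 and 20.1 to 29.1 FPKM in shNC libraries. Most of that sum was ACTA2, at a mean of 14.4 FPKM in shCUEDC1 and 17.1 FPKM in shNC. COL1A1, a collagen of stromal cells on the same list, rose, with means of 7.19 FPKM in shCUEDC1 and 4.77 FPKM in shNC (log2 change 0.61, edgeR adjusted p = 0.00843), and its part in the members' results was not tested.

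Of the 10 members, WWP1 and NEDD4 rose, HECW2 and NDFIP1 fell, and 6 did not pass the test. Calls are adjusted p below 0.05 by edgeR's quasi-likelihood test over all genes. Over all 13824 genes tested, 9.96% were called, 5.19% higher and 4.77% lower in shCUEDC1. Without shNC 3, 28.1% of all genes were called, and 1374 of the 1377 genes called with all 6 libraries kept their call. A call that held without shNC 3 therefore adds little, because nearly every call held there. The median log2 change of the members was -0.08, and that of all genes was -0.004. The median absolute log2 change was 0.17 for members and 0.12 for all genes. The members and the lists below were chosen with earlier results of these data known. Values set beside those of all genes therefore only describe them. Because whole cultures were sequenced, fewer cells with a transcript and less of it per cell cannot be told apart.

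**Figure D1:**
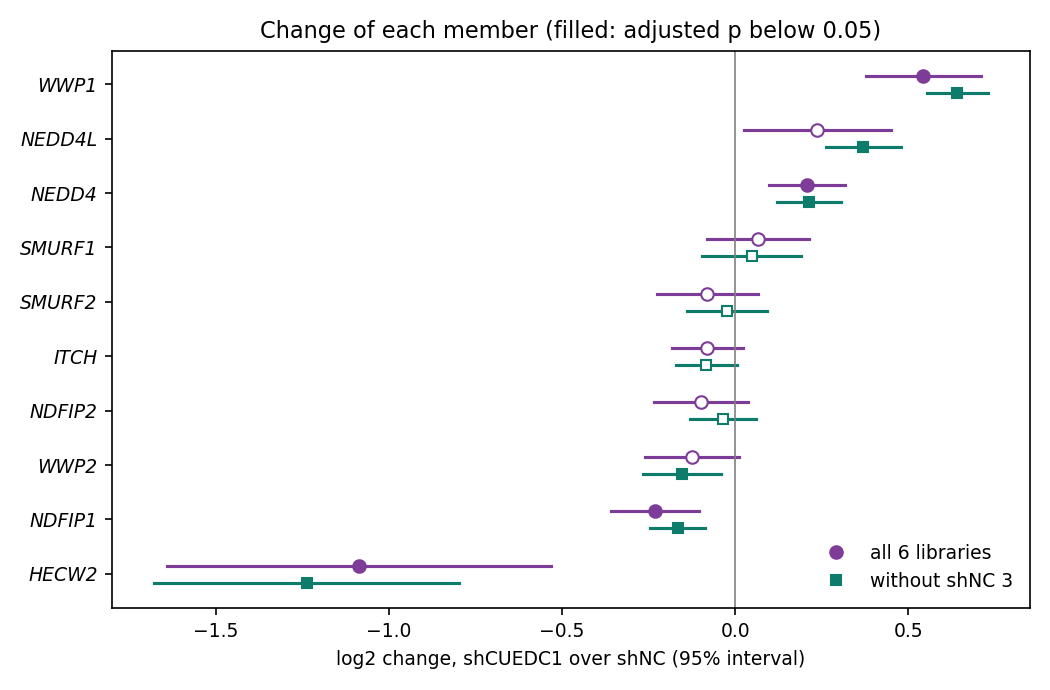
Log2 change of each member in shCUEDC1 over shNC, with its 95% interval from edgeR, for all 6 libraries (circles) and without shNC 3 (squares); filled symbols have an adjusted p below 0.05. WWP1 has the highest value in both fits (0.54 and 0.64), HECW2 the lowest, and NEDD4L and WWP2 are filled only without shNC 3.

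WWP1 (Entrez 11059) is a ligase whose known substrates include KLF5 and ERBB4, and its gene is often gained in breast cancers. Its locus is chromosome 8, 86342738 to 86478420, plus strand (GRCh38). WWP1 was at 172, 167 and 165 CPM in shCUEDC1 1, 2 and 3, against 106, 110 and 130 CPM in shNC 1, 2 and 3. Every shCUEDC1 library was above every shNC library, and shNC 3 was the nearest to them. The rise was 45.7% (95% interval 29.9% to 63.5%), or 0.54 as a log2 change (SE 0.0741), with an edgeR adjusted p of 0.00218. It held its call in each of the 6 fits that leave out a library, with log2 changes of 0.48 to 0.64. By size it ranked 200 among the 717 genes that rose.

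RMDN1, which shares exonic sequence with WWP1 on the opposite strand in the annotation, differed by -0.02 (edgeR adjusted p = 0.908, 95% interval -0.16 to 0.13). RMDN1 was 1 of only 2 other tested genes within 1 Mb of WWP1, and neither was called. Whether counting used strand is not given in the sources used here, so reads in the shared stretch may be assigned to either gene. A processed pseudogene, WWP1P1, is annotated on chromosome 3, and how reads shared with it were assigned is likewise unknown.

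WWP2 (Entrez 11060), the closest relative of WWP1 and a ligase with OCT4 among its reported substrates, did not follow it. It was at 50.9, 48.8 and 47.1 CPM in shCUEDC1 1, 2 and 3, against 54.7, 54.5 and 50.8 CPM in shNC 1, 2 and 3. In CPM the groups overlapped, by shCUEDC1 1 and shNC 3, but not in deposited FPKM (12.4 to 13.1 in shCUEDC1, 13.9 to 14.5 in shNC). The difference was -0.12 on the log2 scale (edgeR adjusted p = 0.236, 95% interval -0.26 to 0.01). Without shNC 3 the difference was -0.15 (edgeR adjusted p = 0.0343). The log2 ratio of WWP1 to WWP2, on the FPKM scale, was 1.75, 1.77 and 1.75 in shCUEDC1 1, 2 and 3, against 0.94, 1.00 and 1.28 in shNC 1, 2 and 3. So WWP1 exceeded WWP2 in every library, and by more in each shCUEDC1 library than in any shNC library.

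NEDD4 (Entrez 4734), the founding ligase, ubiquitinates endosomal adaptors and receptors of growth factors. It was at 118, 114 and 114 CPM in shCUEDC1 1, 2 and 3, against 103, 96.3 and 100.0 CPM in shNC 1, 2 and 3. The groups did not overlap, and the rise was small at 15.5% (95% interval 7.07% to 24.6%, log2 change 0.21, SE 0.0490, edgeR adjusted p = 0.0265). The call held without shNC 3 (edgeR adjusted p = 4.85e-04), as nearly all calls did. It was lost on leaving out any of the other libraries, where the edgeR adjusted p was 0.0619 without shNC 1, 0.0840 without shNC 2, and 0.130, 0.107 and 0.0879 without shCUEDC1 1, 2 and 3.

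NEDD4L (Entrez 23327), the paralogue best known for removing the epithelial sodium channel from the cell surface, had the second highest log2 change of the members but no call. It was at 63.6, 66.2 and 64.8 CPM in shCUEDC1 1, 2 and 3, against 51.8, 48.9 and 64.6 CPM in shNC 1, 2 and 3. shNC 3 lay within the range of the shCUEDC1 libraries, while the other shNC libraries lay below it. NEDD4L differed by 0.24 on the log2 scale (edgeR adjusted p = 0.154, 95% interval 0.02 to 0.45). Without shNC 3 it was 0.37 (edgeR adjusted p = 2.51e-06, 95% interval 0.26 to 0.48), so shNC 3 decides this call.

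HECW2 (Entrez 57520), a ligase of neural tissue known to ubiquitinate p73, was the scarcest member. Its rounded counts were 36, 24 and 39 in shCUEDC1 1, 2 and 3, against 86, 73 and 53 in shNC 1, 2 and 3, or 1.23 to 2.02 CPM against 2.78 to 4.35 CPM. The groups did not overlap, and HECW2 was the only called member past 1.5-fold, against 415 such genes among all 13824 tested. The change was -53.0% (95% interval -68.0% to -30.9%), or -1.09 as a log2 change (SE 0.248), with an edgeR adjusted p of 0.0232. Without shNC 3 the call held (log2 change -1.24, edgeR adjusted p = 4.36e-05), as nearly all calls did. Leaving out any of the other libraries ended it, with an edgeR adjusted p of 0.0944 without shNC 1, 0.0529 without shNC 2, and 0.0839, 0.105 and 0.0657 without shCUEDC1 1, 2 and 3. HECW1, its paralogue and not a member, had 2 to 11 reads per library and was not tested.

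The SMURF ligases restrain TGF beta and BMP signalling by ubiquitinating SMADs and, with inhibitory SMADs, the receptors. Neither was called. SMURF1 (Entrez 57154) was at 26.8 to 27.9 CPM in shCUEDC1 and 25.3 to 26.9 CPM in shNC libraries (log2 difference 0.07, 95% interval -0.08 to 0.21, edgeR adjusted p = 0.587). SMURF2 (Entrez 64750) was at 47.5, 45.5 and 44.7 CPM in shCUEDC1 1, 2 and 3, against 46.7, 46.8 and 52.2 CPM in shNC 1, 2 and 3. It differed by -0.08 on the log2 scale (edgeR adjusted p = 0.495, 95% interval -0.23 to 0.07), and by -0.02 without shNC 3. For both genes the interval leaves out a change of 1.5-fold, which is 0.585 on the log2 scale. Exons of SMURF1 and SMURF2 overlap those of TRRAP and CEP95 on the opposite strand, and neither partner was called. SMURF2 also has an annotated copy, SMURF2P1, on its own chromosome.

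ITCH (Entrez 83737) ubiquitinates JUNB, TP63 and CFLAR and is known for its role in immune tolerance. It was at 111, 108 and 110 CPM in shCUEDC1 1, 2 and 3, against 119, 114 and 115 CPM in shNC 1, 2 and 3. The groups did not overlap, but the log2 difference was only -0.08 (edgeR adjusted p = 0.315, 95% interval -0.18 to 0.02). In CPM, non-overlapping groups were found for 5 of 10 members, against 31.3% of all genes tested, which only describes members chosen with earlier results known.

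Of the adaptors, NDFIP1 fell and NDFIP2 was not called. NDFIP1 (Entrez 80762; chromosome 5, 142108505 to 142154443, plus strand) was at 205, 203 and 209 CPM in shCUEDC1 1, 2 and 3, against 230, 233 and 262 CPM in shNC 1, 2 and 3. Every shCUEDC1 library was below every shNC library, and shNC 3 was the farthest from them. The change was -14.9% (95% interval -22.1% to -7.04%), or -0.23 as a log2 change (SE 0.0570), with an edgeR adjusted p of 0.0309. Without shNC 3 the log2 change was -0.17 (edgeR adjusted p = 0.00144). The call was lost without any single shCUEDC1 library, with an edgeR adjusted p of 0.130, 0.146 and 0.105 without shCUEDC1 1, 2 and 3. An annotated processed pseudogene, NDFIP1P1, lies on chromosome 12.

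NDFIP2 (Entrez 54602), on chromosome 13 (79481124 to 79556075, plus strand), was at 84.2, 83.6 and 80.7 CPM in shCUEDC1 1, 2 and 3. In shNC 1, 2 and 3 it was at 86.6, 83.7 and 95.9 CPM. In CPM the ranges overlapped between shCUEDC1 1 and shNC 2, but not in deposited FPKM (17.4 to 18.3 in shCUEDC1, 18.4 to 21.1 in shNC). The log2 difference was -0.10 (edgeR adjusted p = 0.356, 95% interval -0.24 to 0.04). It was -0.04 without shNC 3, the shNC library with the highest level of both adaptors. Its exons overlap those of the annotated antisense gene NDFIP2-AS1.

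**Figure D2:**
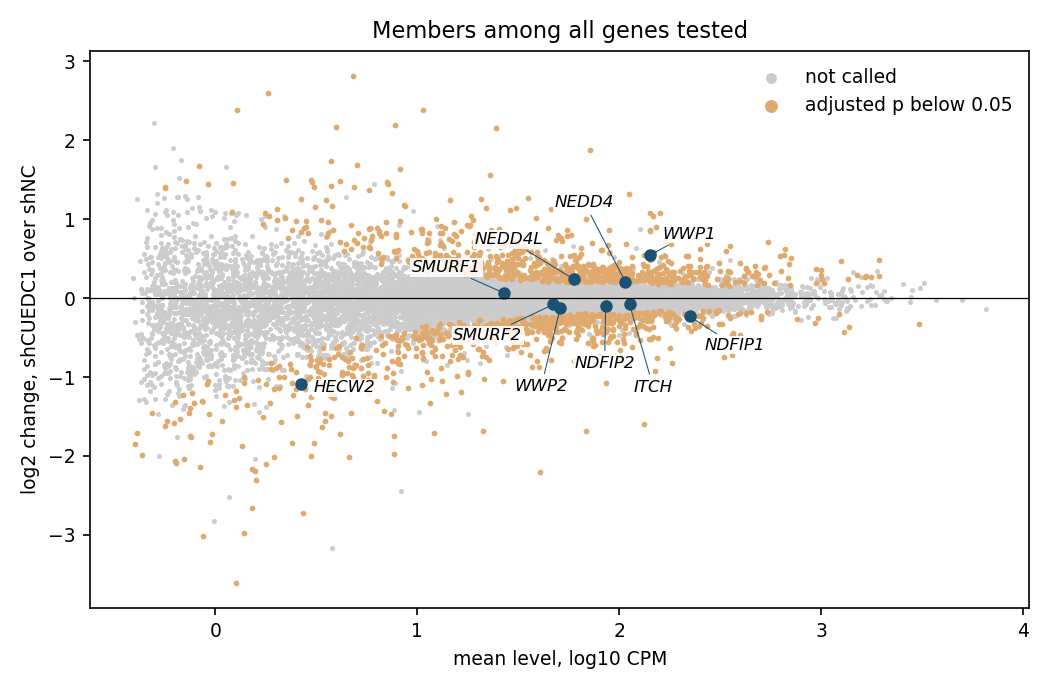
Log2 change in shCUEDC1 over shNC against the mean level (log10 CPM) of every gene tested, with the 10 members as large labelled points. WWP1 and NDFIP1 are abundant and modestly changed, while HECW2, the member with the largest fold, lies at low counts where estimates spread more widely.

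Levels of different genes were compared per length, as deposited FPKM. The most abundant member in all 6 libraries was NDFIP1, at 58.0 ± 0.639 FPKM in shCUEDC1 and 69.0 ± 5.20 FPKM in shNC (SD, n = 3 each). Its shNC mean was at or above that of 92.8% of the genes in the table. WWP1 came next in every library and was the most abundant ligase, at 43.0 ± 1.20 FPKM in shCUEDC1 and 30.2 ± 3.15 FPKM in shNC. In shCUEDC1 the order went on with NEDD4 (20.2 ± 0.344 FPKM), NDFIP2 (18.0 ± 0.478) and ITCH (17.4 ± 0.212). In shNC, NDFIP2 (19.5 ± 1.43 FPKM) and ITCH (18.7 ± 0.404) stood ahead of NEDD4 (17.7 ± 0.585). The ranges of NDFIP2 and ITCH overlapped in both groups, so their order is not resolved.

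WWP2 was the sixth in every library, at 12.7 ± 0.346 FPKM in shCUEDC1 and 14.3 ± 0.314 FPKM in shNC. NEDD4L and SMURF2 followed at similar levels. NEDD4L was at 7.66 ± 0.153 FPKM in shCUEDC1 and 6.58 ± 1.04 FPKM in shNC, and SMURF2 at 7.64 ± 0.267 and 8.24 ± 0.534 FPKM in the same groups. Their ranges overlapped in shCUEDC1 and did not in shNC. SMURF1 was at 4.85 ± 0.0872 FPKM in shCUEDC1 and 4.68 ± 0.131 FPKM in shNC. HECW2 was at 0.143 ± 0.0379 FPKM in shCUEDC1 and 0.307 ± 0.0651 FPKM in shNC, the last in every library.

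**Figure D3:**
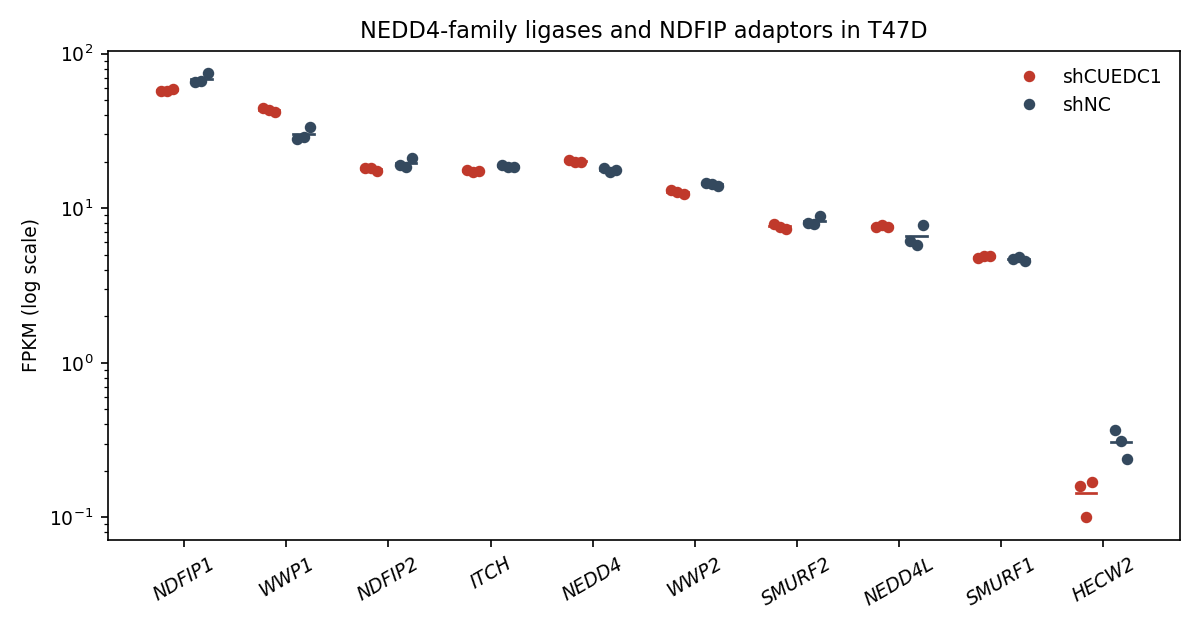
Deposited FPKM of each member on a log scale, with 1 point per library, shCUEDC1 left of shNC, and a bar at the mean of 3. Members are ordered by their shNC mean, and apart from HECW2 (below 0.4 FPKM) all lie between 4.5 and 75.0 FPKM.

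The make-up of the family was described by summing FPKM over the 8 ligases, with no test over the sum. WWP1 made up 38.1%, 38.0% and 37.4% of it in shCUEDC1 1, 2 and 3, against 28.1%, 29.6% and 32.0% in shNC 1, 2 and 3. The other 7 ligases together were at 70.6 ± 0.994 FPKM in shCUEDC1 and 70.5 ± 1.54 FPKM in shNC (SD, n = 3 each). The difference in the ligase sum, 114 ± 2.16 FPKM in shCUEDC1 and 101 ± 4.10 FPKM in shNC, was thus almost all WWP1. The other 7 differed in both directions, so their near-equal sums do not mean that each was unchanged. Mean FPKM of NEDD4, NEDD4L and SMURF1 was higher in shCUEDC1, and that of WWP2, ITCH, SMURF2 and HECW2 was lower. The adaptors summed to 76.0 ± 0.203 FPKM in shCUEDC1 and 88.5 ± 6.58 FPKM in shNC. In shNC 1, 2 and 3 they summed to 84.45, 84.97 and 96.09 FPKM, so shNC 3 raised the shNC mean. Their ratio to the ligases was 0.656, 0.667 and 0.683 in shCUEDC1 1, 2 and 3, against 0.852, 0.870 and 0.912 in shNC 1, 2 and 3. These are ratios of RNA and say nothing of the proteins.

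**Figure D4:**
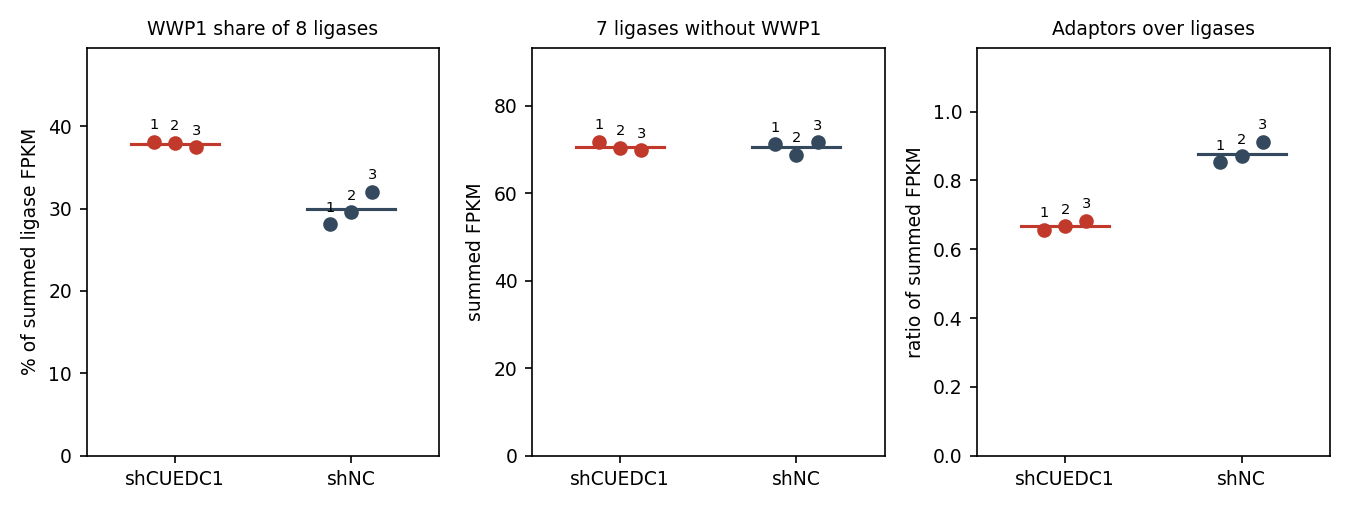
The share of WWP1 in the summed FPKM of the 8 ligases (left), the summed FPKM of the other 7 (middle) and the ratio of summed adaptor to summed ligase FPKM (right), by library, numbered by replicate, with a bar at the mean of 3. The share is 37.4% to 38.1% in shCUEDC1 and 28.1% to 32.0% in shNC, while the sums in the middle panel overlap and the ratio is lower in every shCUEDC1 library.

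The genes next to the members were read against the 9.96% called over all genes tested. Within 1 Mb, 14 genes were tested around NEDD4, of which PYGO1 fell (log2 change -0.89, edgeR adjusted p = 0.00168) and none rose. Around NDFIP1, 45 genes were tested and 0 were called, and around HECW2 there were 13 with 0 called. Of 25 around WWP2, CYB5B, NQO1 and EXOSC6 fell by 0.18, 0.32 and 0.22 on the log2 scale. Around SMURF2, DCAF7 rose by 0.18, 1 of 21 tested. No neighbour of the other members was called.

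The pattern most like that of WWP1 over the 6 libraries was sought among the 10141 other genes that averaged 10 CPM or more. By Pearson correlation of log2 CPM the nearest were GPC6 (r = 0.999), a cell-surface heparan sulfate proteoglycan, EZR (0.998), which links actin to the membrane, MTMR1 (0.998), a phosphoinositide phosphatase, DIXDC1 (0.998), a regulator of Wnt signalling, and BIRC3 (0.998), a RING ubiquitin ligase of NF-kB signalling. With 6 points, most of the contrast lying between the groups, 39 genes exceeded 0.99, so the values only describe. GPC6, EZR, DIXDC1 and BIRC3 were called, with log2 changes of 0.86, 0.28, 0.44 and 0.67. MTMR1 was not (log2 difference 0.13, edgeR adjusted p = 0.140). In all 5, as in WWP1, shNC 3 was the highest of the shNC libraries. BIRC3, for example, was at 443, 442 and 422 CPM in shCUEDC1 1, 2 and 3, against 244, 255 and 325 CPM in shNC 1, 2 and 3.

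Among ligases with a HECT domain but outside the member list, 19 were tested, of which 0 rose and 1 fell, 5.26% against the 9.96% of all genes, with a median log2 change of 0.03. HERC3, a ligase with RCC1-like repeats, was at 8.36, 8.18 and 7.41 CPM in shCUEDC1 1, 2 and 3, against 11.0, 10.6 and 11.9 CPM in shNC 1, 2 and 3 (log2 change -0.48, edgeR adjusted p = 0.0192). The count was 6 higher and 2 lower without shNC 3, a fit in which 28.1% of all genes were called. The call of HERC3 held there and in 1 other of the 6 fits with a library left out.

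Other proteins that bridge the ligases to membranes or receptors were listed as arrestin-domain and membrane adaptors. PY motifs were searched for only in NDFIP1 and NDFIP2, so a listed protein, such as ARRB1, may have none. Of 22 tested, 2 rose and 1 fell, 13.6% against the 9.96% of all genes, with a median log2 change of -0.001. ARRB1, beta-arrestin 1, was at 142, 144 and 123 CPM in shCUEDC1 1, 2 and 3, against 89.7, 88.9 and 105 CPM in shNC 1, 2 and 3 (log2 change 0.53, edgeR adjusted p = 0.00427). PMEPA1, a membrane protein that binds NEDD4-family WW domains and sequesters receptor SMADs, was at 39.9, 41.3 and 37.6 CPM in shCUEDC1 1, 2 and 3. In shNC 1, 2 and 3 it was at 51.8, 51.2 and 51.6 CPM, and it held its call in all 6 fits with a library left out, as did ARRB1. WBP1L, a PY-motif membrane protein, rose by 0.20 (edgeR adjusted p = 0.0451), a call that held only without shNC 3 among those fits, with adjusted p up to 0.179. Without shNC 3 the list had 4 rises and 5 falls, 40.9% against the 28.1% of all genes in that fit.

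Regulators and E2 partners had 2 rises and 2 falls among 24 tested, 16.7% against the 9.96% of all genes, with a median log2 change of 0.04. SMAD6, an inhibitory SMAD that recruits SMURF ligases to BMP receptors, was at 6.32, 6.70 and 6.27 CPM in shCUEDC1 1, 2 and 3. In shNC 1, 2 and 3 it was at 11.0, 11.6 and 9.50 CPM (log2 change -0.74, edgeR adjusted p = 0.00437). SGK3, a kinase related to SGK1, which phosphorylates NEDD4L, rose by 0.79 (edgeR adjusted p = 0.0452). It was at 71.7, 75.4 and 61.7 CPM in shCUEDC1 1, 2 and 3, against a wide spread of 29.6, 38.9 and 52.5 CPM in shNC 1, 2 and 3. The readthrough gene C8orf44-SGK3 shares its exons, was counted apart and was not called (log2 difference 0.18, edgeR adjusted p = 0.284), so the division of reads between them is uncertain.

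USP2, a deubiquitinase, fell by 0.46 and UBE2E1, an E2 enzyme, rose by 0.25 (edgeR adjusted p = 0.0170 and 0.0300). In the 6 fits with a library left out, SGK3 was called in 2 (adjusted p up to 0.154), USP2 in 3 (up to 0.0896) and UBE2E1 only without shNC 3 (up to 0.149). Without shNC 3 the list had 3 rises and 5 falls, 33.3% against the 28.1% of all genes in that fit. With the replicate number as a block, 2 of the 24 were called.

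Reported substrates of the family had 2 rises and 3 falls among 48 tested, 10.4%, close to the background, and the median log2 change was -0.03. ANTXR1, an anthrax toxin receptor, was at 10.6, 9.67 and 9.95 CPM in shCUEDC1 1, 2 and 3, against 25.0, 23.8 and 19.9 CPM in shNC 1, 2 and 3 (log2 change -1.19, edgeR adjusted p = 2.49e-04). It was listed without a named ligase of the family, and its place as a substrate was not checked. KLF5, a transcription factor that WWP1 ubiquitinates, was at 25.3, 27.9 and 27.0 CPM in shCUEDC1 1, 2 and 3. In shNC 1, 2 and 3 it was at 38.1, 38.2 and 43.9 CPM (log2 change -0.58, edgeR adjusted p = 0.00200). Both held their calls in all 6 fits with a library left out.

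The receptor ERBB3, a NEDD4 substrate, was at 244, 251 and 246 CPM in shCUEDC1 1, 2 and 3, against 190, 199 and 210 CPM in shNC 1, 2 and 3, and it also held its call in those 6 fits. SLC11A2, the iron transporter that NDFIP1 and WWP2 regulate, rose by 0.24 (edgeR adjusted p = 0.0113), and MAVS, an antiviral adaptor targeted by ITCH and SMURF ligases, fell by 0.21 (edgeR adjusted p = 0.0284). SLC11A2 kept its call in 2 of those fits, with adjusted p up to 0.0676, and MAVS only without shNC 3, with adjusted p up to 0.140. Without shNC 3 the list had 7 rises and 9 falls, 33.3% against the 28.1% of all genes in that fit.

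The ESCRT machinery, which sorts the ubiquitinated cargo of these ligases into multivesicular bodies, had 0 rises and 1 fall among 27 tested, 3.70% against the 9.96% of all genes, with a median log2 change of -0.07. VPS37C, a subunit of ESCRT-I, was at 62.7, 65.0 and 69.3 CPM in shCUEDC1 1, 2 and 3, against 77.0, 81.3 and 72.8 CPM in shNC 1, 2 and 3 (log2 change -0.23, edgeR adjusted p = 0.0474). Among the 6 fits with a library left out the call held only without shNC 3, where the list had 1 rise and 5 falls, 22.2% against the 28.1% of all genes in that fit.

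**Figure D5:**
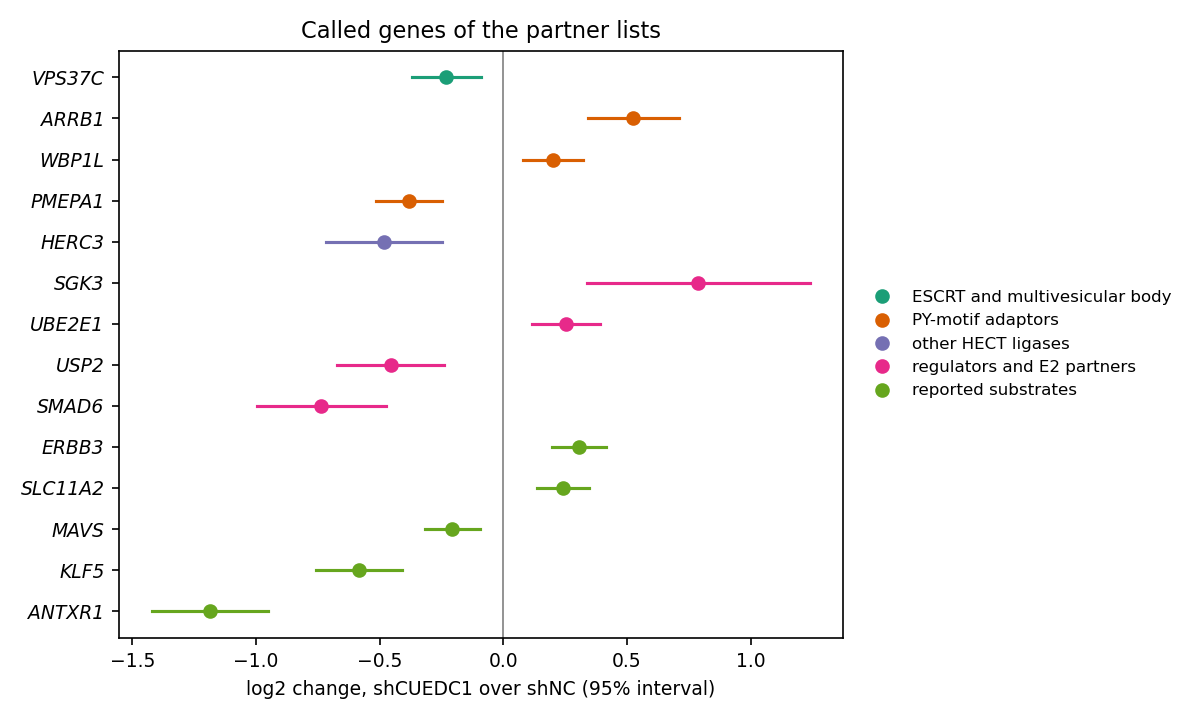
Log2 change in shCUEDC1 over shNC with its 95% interval from edgeR for the 14 called genes of the 5 partner lists, coloured by list. The colour labelled PY-motif adaptors is the list of arrestin-domain and membrane adaptors, whose motifs were not searched for. ANTXR1 (-1.19) and SMAD6 (-0.74) are the lowest, SGK3 (0.79) and ARRB1 (0.53) the highest, and SGK3 has the widest interval.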

How the data were processed

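Poly(A)-selected RNA of 6 T47D libraries was sequenced, per the labels' protocols. The authors deposited estimated counts per gene, not normalised and fractional, per the file headers read counts. They also deposited FPKM and TPM values scaled to gene length and library, and a signal column of counts divided by a size factor per library, which was not used. Reads were placed on GRCh38.p13, per the submitters' processing notes. Which aligner and counter were used, and whether strand was, is not given in the sources used here.

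Counts were rounded, filtered (filterByExpr, minimum count 10) and normalised by TMM. Groups were compared in R 4.3.3 by the robust quasi-likelihood test of edgeR 4.0.16, and p-values were adjusted by Benjamini and Hochberg's method over 13824 genes. Intervals are 95%. The test was checked on simulated data. Alternatives used limma 3.58.1 and DESeq2 1.42.0. The members and lists were chosen with earlier results of these data known. Named genes are all members, CUEDC1, up to 4 called genes of each list by p, and the 5 genes most like the member with the smallest p. MAVS, COL1A1, ACTA2, genes that overlap or neighbour a member, and the family sums were added after their values were seen. Locations and coding sequences are from GENCODE v29 (GRCh38), matched by symbol.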

Additional observations from a re-analysis of the deposited data

How the results depend on the processing

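With all 6 libraries, WWP1, NDFIP1 and the 6 uncalled members kept direction and side of the threshold under each of the 8 alternatives (RLE size factors, both other filters, DESeq2, limma-voom, limma-trend on FPKM with either pseudocount, the replicate block). NEDD4 kept its direction but was not called by limma-trend on log2(FPKM + 0.5) (0.18, adjusted p = 0.0648) or log2(FPKM + 0.1) (0.19, adjusted p = 0.0647), and there 2 members were called, since HECW2 was below the minimum mean of 0.5 FPKM. Other HECT ligases had 2 calls without a low-count filter and by DESeq2. ESCRT genes had 0 calls without that filter and with the replicate block, where VPS37C lost its call. The replicate number paired nothing (correlations of same-numbered deviations 0.004, 0.07 and 0.03). As a block it left the same 4 members called, and regulators and E2 partners had 2 calls, not 4.

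Leaving out 1 library gave 468 to 3925 called genes in all and 1 to 6 called members. In the lists the calls were 0 to 8 (other HECT ligases), 2 to 9 (arrestin-domain and membrane adaptors), 1 to 8 (regulators), 3 to 16 (substrates) and 0 to 6 (ESCRT). Every upper value was without shNC 3. Log2 changes then ranged from 0.18 to 0.23 for NEDD4, 0.16 to 0.37 for NEDD4L, -1.24 to -0.90 for HECW2, -0.27 to -0.17 for NDFIP1 and -0.15 to -0.10 for WWP2. No member reversed. Each such fit rests on 5 libraries.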
